A study of Mus musculus with 2 samples.

Results

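The genes of oxidative phosphorylation were followed through 2 single-cell RNA libraries of mouse pancreatic tumours, 1 of the EL1 genotype and 1 of the WTg genotype, each from mice aged 6 weeks. Members were all genes of the matrices whose symbol begins with mt-, Nduf followed by a, b, c, s or v, Cox followed by 4 to 8, Uqcr or Atp5, together with Sdha, Sdhb, Sdhc and Sdhd. This gave 107 of 32285 genes, of which 13 were mitochondrial-encoded and 94 nuclear-encoded. Among the nuclear-encoded members, 77 were structural subunits, 8 were complex I assembly factors (Ndufaf genes), 8 were isoforms restricted to particular tissues, and the last was Cox7a2l, a supercomplex factor. By complex, 45 nuclear-encoded members belonged to complex I, 4 to complex II, 8 to complex III, 20 to complex IV and 17 to complex V. They lie on 19 chromosomes of the GRCm38 build.

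EL1 mice express the SV40 T antigen and firefly luciferase from the elastase I promoter, which is active in pancreatic acinar cells, in an FVB/N line. WTg mice carry the same transgenes and, in addition, the open reading frame of the RNA methyltransferase Mettl3 under the chimeric CAG promoter, a transgene that was made in BL/6 mice. Strain background and the Mettl3 transgene therefore cannot be told apart in this comparison. How many animals, and of which sex, stand behind each library was not given in the sources used here. The labels call the cells epithelial. The study's methods describe staining for surface antigens and for dead cells with 7AAD, and a cell sorter used to check viability, and they name no surface marker that was gated on.

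Oxidative phosphorylation is carried out by 5 protein complexes of the inner mitochondrial membrane. Complex I oxidises NADH and complex II succinate, complex III passes the electrons to cytochrome c, complex IV reduces oxygen, and complex V uses the proton gradient to make ATP. Complexes I, III, IV and V combine subunits encoded in mitochondrial DNA with subunits encoded in the nucleus, whereas complex II is wholly nuclear-encoded. The mitochondrial genome is transcribed as long polycistronic RNAs that are cut into single messages, while each nuclear member has a promoter of its own. In the exocrine pancreas this machinery supplies the ATP for enzyme synthesis and secretion.

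In the kept cells the transgene target was as labelled, with Mettl3 at 15.1 CPM (UMIs scaled to a total of 1000000) in EL1 and at 66.7 CPM in WTg. Barcodes with no fewer than 500 genes and 1000 UMIs, and with no more than 20% mitochondrial-encoded UMIs, were kept as cells, which left 1113 of 1621 barcodes of EL1 and 905 of 1488 of WTg. Median depth was 26543 UMIs in EL1 and 34836 UMIs in WTg, and the total was 37961287 and 33007683 UMIs. The epithelial genes Epcam (576 and 509 CPM), Krt8 (6198 and 5878 CPM) and Krt18 (4253 and 4240 CPM) were present in both libraries. The libraries shared 15 barcodes among those deposited and 0 among the kept cells. With 1 library per group no test of a difference was possible, and all intervals are 95% exact counting intervals that do not cover the spread between animals. The total behind a CPM value is that of all UMIs of the same cells, and log2 ratios are WTg over EL1 unless another pair is named. UMIs count the 3′ ends of transcripts and were not scaled to gene length, so each gene was compared with itself between libraries or cells.

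Promoter sequence gave a first view of what some nuclear-encoded members share apart from their names. RefSeq promoter windows (GRCm38.p6, 250 bases before to 50 bases after the start) were matched for 77 of the 94 nuclear-encoded members. The motif GCGCATGC, bound by the nuclear respiratory factor NRF1, was searched on both strands. It was found for 12 of the 77 members (15.6%), against 824 of all 27025 genes with a promoter window (3.05%). This background was not limited to genes expressed in these cells. The motif AAGATGGCG of YY1 was found for 8 members (10.4%, against 1.64% of all), and the motif CCGGAAGT of ETS factors, such as the GABPA protein, for 5 members (6.49%, against 4.31%). A match is a description of these letters and not of binding. Examples upstream of the start are shown for 1 subunit each of complexes I, II, IV and V and for Ndufa6, a member described further below. They are written on the strand of the gene, 5′ to 3′, with the matched letters in capitals, and in Ndufa6 and Sdhb the match is to the reverse strand.
Ndufa11: acctgcactgcGCGCATGCgcgcacgcctt
Ndufa6: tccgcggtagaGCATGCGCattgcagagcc
Sdhb: aagcccagtggGCATGCGCcctacgggccg
Cox6a1: acaggaacgggGCGCATGCgcgctctcgct
Atp5g2: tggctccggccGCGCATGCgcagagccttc
The windows lie at chr17:56717691-56717720 (plus strand, Ndufa11), chr15:82354356-82354385 (minus strand, Ndufa6), chr4:140961206-140961235 (plus strand, Sdhb), chr5:115349102-115349131 (minus strand, Cox6a1) and chr15:102671071-102671100 (minus strand, Atp5g2). The YY1 match of Atp5j2 lies after its start site and is not shown. Matches of the NRF1 motif on both strands overlap each other wherever the motif reads on into its own reverse complement, as in Ndufa11, Cox6a1 and Atp5g2.

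As whole sums, both genomes' transcripts made up slightly less of the RNA in WTg than in EL1. The 13 mitochondrial-encoded members took 4.45% (4.44 to 4.45) of all UMIs in EL1 and 4.12% (4.11 to 4.12) in WTg, or -0.11 on the log2 scale. The 94 nuclear-encoded members took 2.36% in EL1 and 2.15% in WTg, or -0.13 on the log2 scale (-0.14 to -0.13). The balance of the 2 genomes was nearly the same, at 1.88 mitochondrial-encoded UMIs per nuclear-encoded UMI in EL1 and 1.91 in WTg. The mitochondrial-encoded level was bounded by the filter at 20%, above which lay 24.2% of EL1 barcodes and 29.6% of WTg barcodes. Scaling by TMM, which trims extreme genes, raised every log2 ratio by 0.11 and moved the median of all 16167 genes with at least 10 UMIs from -0.14 to -0.02. Under it the mitochondrial-encoded sum was level (0.0029) and the nuclear-encoded sum was at -0.02.

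The lower sums in WTg went along with a group of cells found only in EL1. Clustering, from which all 107 members were left out, gave a cluster of 74 EL1 cells and 0 WTg cells (cluster 11) that was led by Atp4b and Atp4a, the subunits of the gastric proton pump, and by genes that included Esrrg, a nuclear receptor known as a regulator of mitochondrial genes. Atp4a stood at 484 CPM in these cells, 2.22 CPM in the rest of EL1 and 1.24 CPM in WTg. Epcam (167 CPM, against 613 CPM in the rest of EL1) and Krt8 (509 CPM, against 6725 CPM) were low there. No cell type name was given to it, since no fixed marker list named it. These cells held 8.47% of the EL1 UMIs, but 17.4% of the UMIs of nuclear-encoded members and 14.9% of those of mitochondrial-encoded members.

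Cluster 11 had the highest share of nuclear-encoded members among all clusters with at least 20 cells of a library. Its mitochondrial-encoded members made up 7.80% and its nuclear-encoded members 4.86% of UMIs. Against the rest of EL1 the log2 ratio was 0.91 for the mitochondrial-encoded and 1.19 for the nuclear-encoded sum, and 87 of 90 nuclear-encoded members were higher, while the median of all genes was near 0. The nuclear-encoded sums were higher for every complex, by 0.92 for complex I, 1.26 for complex II, 1.23 for complex III, 1.40 for complex IV and 1.26 for complex V on the log2 scale. Cox4i1, a core subunit of complex IV, reached 2258 CPM, and Cox7a1, the complex IV isoform known from heart and skeletal muscle, reached 95.7 CPM. Cluster 11 held 308 of the 395 Cox7a1 UMIs of EL1. Since clusters are defined on the same cells, these contrasts describe the cluster and test nothing.

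Without cluster 11 the libraries were level in both sums. Leaving out an EL1 cluster with high shares of these members can only raise the ratios of both sums, and no WTg cluster was left out in this comparison. A single member that was not high in cluster 11 could fall, as Atp5g2 did (-0.16 in all cells, -0.19 without the cluster). The mitochondrial-encoded members took 4.14% of UMIs in EL1 and 4.12% in WTg (log2 -0.01), and the nuclear-encoded members 2.13% and 2.15% (log2 0.01, 0.01 to 0.02). The complexes then differed in direction, with nuclear-encoded sums at -0.07 for complex I, -0.18 for complex II, -0.04 for complex III, 0.05 for complex IV and 0.09 for complex V. The account of each complex below gives its counts and median for all kept cells and then without cluster 11.

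Among single nuclear-encoded members, most lay a little lower in WTg and few lay far from their complex. Of 92 members with at least 10 UMIs, 20 were higher and 72 lower in WTg, with a median log2 ratio of -0.22 against -0.14 for all genes. Of all 16167 genes with that many UMIs, 6168 were higher and 9999 lower. Under TMM 28 were higher and 64 lower, and relative to the median of all genes 31 lay above and 61 below. At least 2-fold higher were 3 members (Atp5j2, Cox4i2 and Ndufa4l2), where 10.1% of all genes tested were that much higher. At least 2-fold lower were 3 members (Ndufaf1, Ndufaf6 and Cox7b2), where 6.9% of all genes were that much lower. Cox4i2 and Ndufa4l2 had few UMIs, many of them in cluster 17 (described below), which held 2 EL1 and 12 WTg cells. At 1.5-fold the members past the threshold were 3 higher and 9 lower, beside 15.7% and 17.1% of all genes. Most members have many UMIs, so that well counted genes are the closer background. Of 83 nuclear-encoded members with at least 1000 UMIs, 1 was at least 2-fold higher (2.4% of such genes were) and 0 were 2-fold lower (1.44%), and at 1.5-fold 1 was higher (5.48%) and 6 were lower (9.57%). Without cluster 11, 36 members were higher and 56 lower with a median of -0.06, against -0.12 for all genes. All 16048 genes tested there split much alike, with 6432 higher and 9616 lower. In that comparison 4 members were at least 2-fold higher, with Cox7a1 added (background 10.1%), and the same 3 were at least 2-fold lower (background 6.45%).

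**Figure D1:**
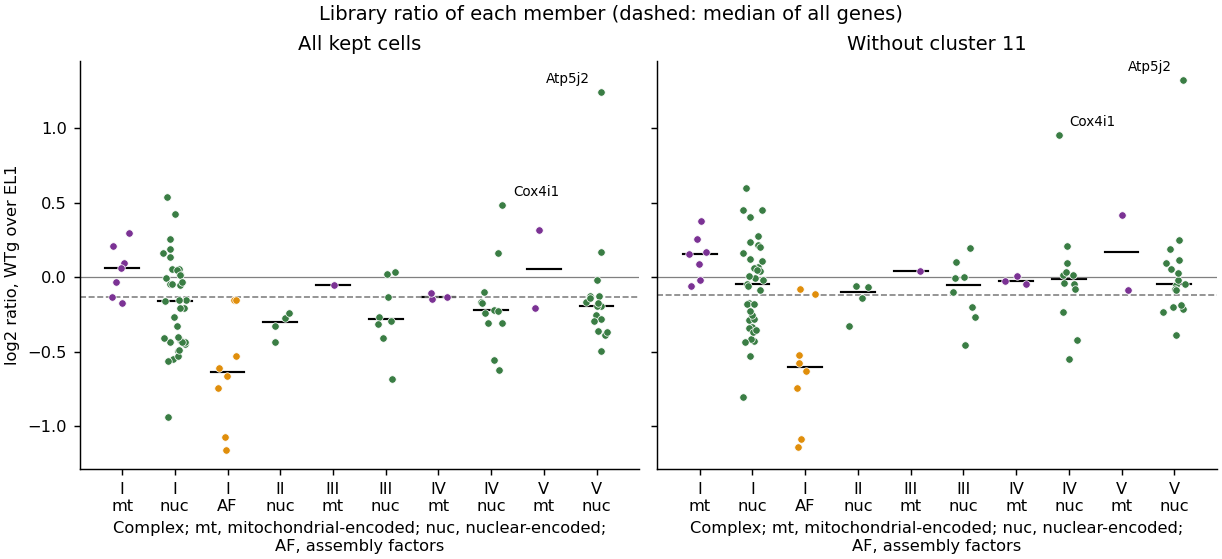
Log2 ratio of CPM, WTg over EL1, for each member (point) by complex and by the genome that encodes it, in all kept cells (left) and without cluster 11 (right). Short bars are medians of a column, the dashed line is the median of all genes, and restricted isoforms are not drawn. Atp5j2 stands above the other members in both panels, and the 8 complex I assembly factors lie below 0 in both.

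In complex I, the entry point for electrons from NADH, 11 of the 45 nuclear-encoded members were higher and 34 lower in WTg, with a median of -0.21. Without cluster 11 these were 16 higher and 29 lower, with a median of -0.11. Ndufb9, the accessory subunit with the most UMIs, was counted at 542 and 409 CPM (log2 -0.41, -0.44 to -0.37). Ndufa1, an accessory subunit encoded on the X chromosome (chrX:37187588-37191163), was highest, with 141 and 204 CPM (0.54, 0.48 to 0.59). The 8 assembly factors, which help build complex I and are not part of the finished enzyme, were all lower in WTg and had a median of -0.64. Their sum was 249 CPM in EL1 and 162 CPM in WTg (-0.62). Ndufaf1 (chr2:119655446-119662827) was the lowest of these, with 535 UMIs at 14.1 CPM in EL1 and 208 UMIs at 6.30 CPM in WTg (-1.16, -1.40 to -0.93). The assembly factors kept this direction without cluster 11 (8 of 8 lower, median -0.60). There, Ndufaf2 (-0.11, -0.24 to 0.02) and Ndufaf5 (-0.08, -0.35 to 0.20) had intervals that included 0 and lay above the median of all genes (-0.12).

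Complex II, which also belongs to the TCA cycle, was lower in WTg in each of its 4 genes. Sdha, the flavoprotein, was counted at 83.4 CPM against 69.0 CPM in WTg (-0.27). Sdhb, the iron-sulfur subunit, was counted at 172 and 127 CPM (-0.44, -0.49 to -0.38). The membrane anchors Sdhc and Sdhd gave -0.24 and -0.33. All 4 values were also below 0 under TMM. Without cluster 11, Sdhb gave -0.32 and Sdhd -0.14, while Sdha (-0.06, -0.14 to 0.02) and Sdhc (-0.06, -0.14 to 0.03) had intervals that included 0 and lay above the median of all genes (-0.12).

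In complex III, 2 of 8 nuclear-encoded members were higher and 6 lower in WTg, with a median of -0.28. Uqcrfs1, the Rieske iron-sulfur protein (chr13:30540308-30545362), was lowest, with 217 CPM against 135 CPM in WTg (-0.68, -0.73 to -0.63). The small subunits Uqcrq (356 and 366 CPM, 0.04) and Uqcrh (406 and 412 CPM, 0.02), the latter with the most UMIs of the complex, were nearly level. Without cluster 11 the median of complex III was -0.05 (3 higher, 5 lower), with Uqcrfs1 at -0.45, Uqcrq at 0.20 and Uqcrh at 0.10.

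In complex IV, the terminal oxidase, 5 of 18 tested members were higher and 13 lower, with a median of -0.19. Cox4i1 (chr8:120668222-120674207) had the most UMIs and was the highest of the members with at least 200 UMIs, with 567 CPM against 795 CPM in WTg (0.49, 0.46 to 0.51). Its difference widened without cluster 11, to 411 and 795 CPM (0.95). Cox7a2l (chr17:83501918-83517330), which joins complexes III and IV into supercomplexes, was lowest, with 258 and 167 CPM (-0.62, -0.67 to -0.57). Without cluster 11 the tally of complex IV turned round, to 10 higher and 8 lower with a median of 0.02, and Cox7a2l was at -0.55. The turn rests in part on restricted isoforms with few UMIs. Of these, Cox4i2 (6 and 51 UMIs), Ndufa4l2 (0 and 53), Cox6b2 (134 and 160) and Cox7a1 (87 and 322) counted as higher. Cox6a2 and Cox7b2 counted as lower.

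In complex V, the ATP synthase, 2 of 17 nuclear-encoded members were higher and 15 lower, with a median of -0.19. Atp5b, the catalytic beta subunit and the member with the most UMIs, was counted at 1044 CPM against 797 CPM in WTg (-0.39, -0.41 to -0.37). Atp5d, the delta subunit of the central stalk, was lowest, with 398 and 283 CPM (-0.49). Atp5j2, the membrane subunit f (chr5:145183698-145192062), went the other way, with 19980 UMIs at 526 CPM in EL1 and 41175 UMIs at 1247 CPM in WTg (1.24, 1.22 to 1.27). Without cluster 11 its log2 ratio was 1.33, Atp5b was at -0.20 and Atp5d at -0.39, and the 17 members were 7 higher and 10 lower with a median of -0.05. Without Atp5j2 the sum over all nuclear-encoded members gave -0.19 in place of -0.13.

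Atp5j2 and Cox4i1 were higher in WTg in most cell groups, not in a single cluster. Library contrasts could be made in 6 cell groups with at least 20 cells of each library. In the neuroendocrine-like class, Atp5j2 stood at 443 CPM against 1270 CPM in WTg (1.52, 1.45 to 1.59). This class was held by cluster 4 in EL1 (147 of 165 cells) and by cluster 3 in WTg (152 of 152 cells). In cluster 7, led by cell cycle genes such as Top2a, the log2 ratio was 1.21, and in cluster 9, led by immediate early genes such as Fos, it was 1.55. In the macrophage-like class Atp5j2 stood at 262 CPM against 349 CPM in WTg (0.41, 0.12 to 0.72), beside a median of 0.40 over all 84 nuclear-encoded members tested in that class. In cluster 6 and in the other immune cells pooled (neutrophil-like, B-like and T or NK-like) the ratios of Atp5j2 were 0.50 and 0.41, with intervals that included 0. Cox4i1 gave 0.83 in the neuroendocrine-like class, 1.09 in cluster 7, 0.90 in cluster 9, 0.49 in the macrophage-like class, -0.05 in cluster 6 and -0.30 in the pooled other immune cells. The last 2 values rested on 12 and 17 UMIs and on 76 and 85 UMIs, and their intervals included 0. Ndufa6, an accessory subunit of complex I named after its values were seen (chr15:82350140-82354322), was at 135 CPM in EL1 and at 181 CPM in WTg over all cells (0.42, 0.37 to 0.48) and was above 0 in 6 of 6 groups, with intervals that included 0 in 3 of them.

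**Figure D2:**
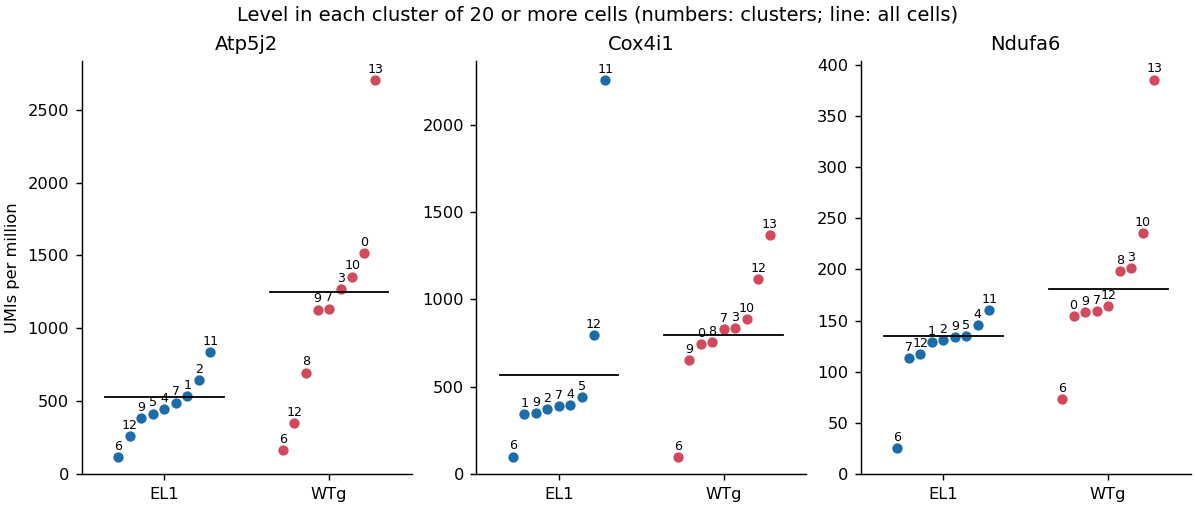
CPM of Atp5j2, Cox4i1 and Ndufa6 in every cluster with at least 20 cells of a library, EL1 in blue and WTg in red, with cluster numbers beside the points and a line at the level of all kept cells. Atp5j2 reached at most 838 CPM in an EL1 cluster and lay between 1128 and 2704 CPM in the WTg clusters other than 6, 8 and 12, and the EL1 cluster 11 had the highest Cox4i1 level of all, at 2258 CPM.

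The genes beside Atp5j2 on chromosome 5 were higher in WTg as well. Counting genes with at least 1000 UMIs, 31 consecutive genes on its low-coordinate side, reaching 4.54 Mb from Cpsf4 to Ttyh3, had log2 ratios between 0.41 and 1.30 with a median of 0.90. The stretch was picked as the run of genes above 0, so its direction is a description. It included Arpc1a and Arpc1b, of the actin-nucleating Arp2/3 complex, the small GTPase Rac1 and Bhlha15, a transcription factor of secretory cells. The next gene, Lfng, was at -0.29, and the 4 genes after it, out to 4.87 Mb, were higher again (Eif3b 0.82, Snx8 1.09, Nudt1 0.61 and Mad1l1 1.11). On the other side Zfp655 (0.97) was the only gene in the run, and the next gene, Rnf6, was at -0.39. From 5 to 10 Mb before Atp5j2, 7 of 45 genes were higher, with a median of -0.39.

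The values of this stretch were not alike in all cells, although the difference between cell groups was not tested. In the neuroendocrine-like class the genes in the last 1 Mb before Atp5j2 were higher in 10 of 10 cases with a median of 1.01, and those from 1 to 2 Mb in 12 of 12 cases with a median of 1.10. In the macrophage-like class 3 of 9 and 4 of 9 of these genes were higher, with medians of -0.17 and -0.05. Summed over the 32 genes of the run, the level went from 13644 CPM in EL1 cluster 4 to 24751 CPM in WTg cluster 3, and in the macrophage-like class from 14690 CPM in EL1 to 13819 CPM in WTg. Over all cells Actb alone held 370460 of the 523331 run UMIs of EL1 and 516734 of the 739962 of WTg. The run sum therefore mostly follows Actb. The macrophage-like class had 27 cells in EL1 and 39 in WTg. In other clusters Atp5j2 and the run sum also parted. WTg cluster 13 had 2704 CPM of Atp5j2 with a run sum of 10110 CPM, and EL1 cluster 11 had 838 CPM with 7561 CPM. The run sum of WTg cluster 8 was 14641 CPM, near the 13786 CPM of all EL1 cells. WTg clusters 0, 3, 7, 9 and 10 lay between 19145 and 26003 CPM.

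Cox4i1 and Ndufa6 also lay within stretches of this kind. Around Cox4i1 on chromosome 8, 15 consecutive genes before it (to Wwox, 6.23 Mb away, 0.02 to 2.01) and 26 after it (to Galnt2, 3.56 Mb away, 0.17 to 1.39) were higher in WTg. Among them, Emc8 overlaps Cox4i1 on the opposite strand by 352 bases and had 1128 UMIs in EL1 and 1280 in WTg. Around Ndufa6 on chromosome 15, 25 genes before it (to Cbx6, 2.52 Mb away, 0.25 to 1.55) and 7 after it (to Tspo, 1.21 Mb away, 0.31 to 1.46) were higher. In the macrophage-like class 0 of 5 genes in the last 1 Mb before Cox4i1 (median -0.34) and 5 of 14 before Ndufa6 (median -0.03) were higher. Farther before Cox4i1, 3 of 4 genes from 1 to 2 Mb (0.05) and 4 of 5 from 2 to 5 Mb (0.20) were higher. After Cox4i1, 2 of 4 genes in the first 1 Mb (-0.10) and 5 of 9 from 1 to 2 Mb (0.03) were higher. In the first 1 Mb after Ndufa6, 2 of 5 were (-0.01). The run sums in that class were 7481 CPM in EL1 and 8278 CPM in WTg around Cox4i1, and 3192 and 3587 CPM around Ndufa6. The sums over the runs were 3121 CPM in EL1 and 4721 CPM in WTg around Cox4i1, and 2215 and 3324 CPM around Ndufa6, in all cells. Around Cox4i1, Rpl13 held 71082 of the 118467 run UMIs of EL1 and 91038 of the 155837 of WTg. Around Ndufa6, Rpl3 held 33704 of 84078 in EL1 and 38655 of 109726 in WTg.

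**Figure D3:**
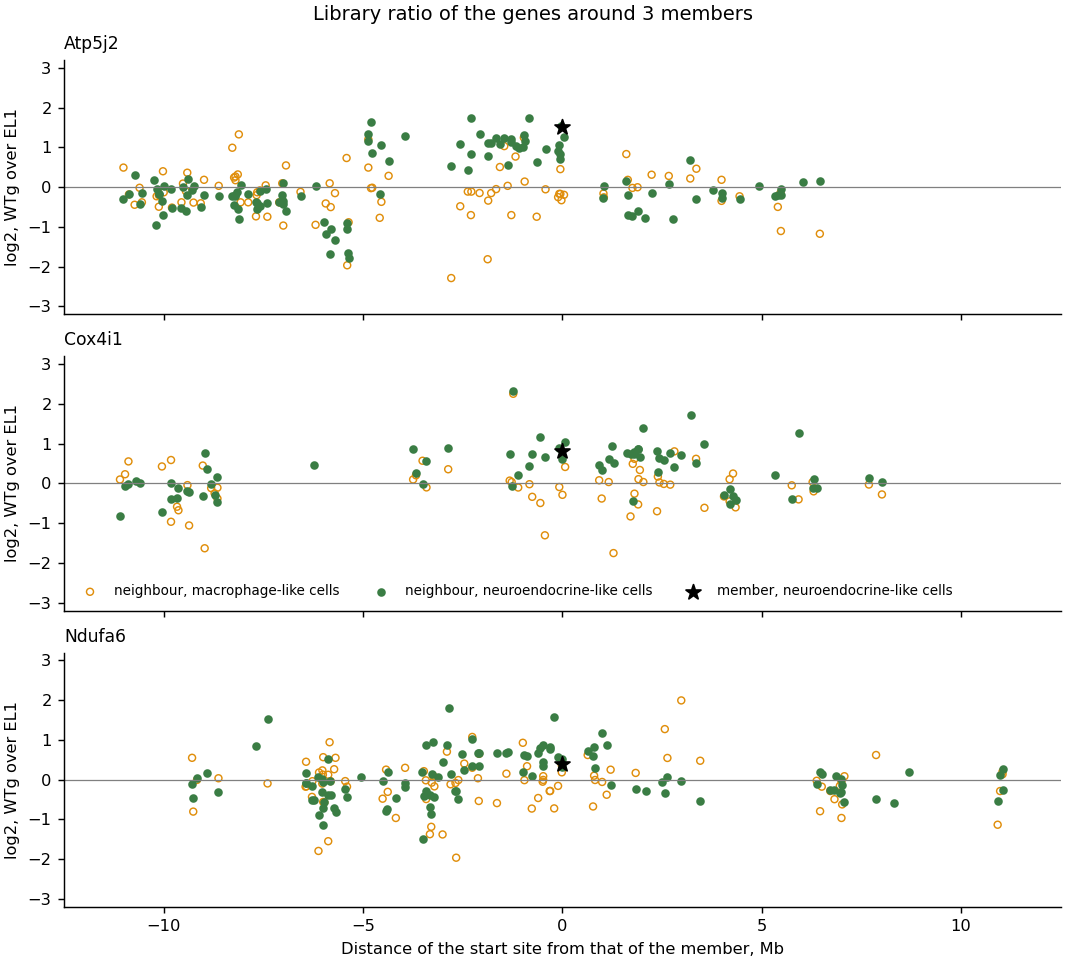
Log2 ratio, WTg over EL1, of genes with at least 1000 UMIs against the distance of their start site from that of Atp5j2, Cox4i1 or Ndufa6 in Mb, in neuroendocrine-like cells (filled green) and macrophage-like cells (open orange), with the member as a star. Most green points stand above 0 in a block of several Mb that holds each member, and the orange points there scatter around 0.

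Over the whole genome such neighbourhoods were uncommon. For 6319 genes with 20 neighbours of at least 1000 UMIs, the median log2 ratio of the neighbours was itself -0.16 at the centre and ran from -0.34 to 0.03 between the 5th and 95th percentiles. It was 0.46 for Atp5j2, a value that 1.52% of genes reached, 0.62 for Cox4i1 (0.95%) and 0.63 for Ndufa6 (0.886%). For Ndufa1, at -0.12, it was near the centre (35.8% of genes reached it). Atp5j2 and Cox4i1 were picked for their high own ratios, and Ndufa6 after its values were seen. The shares given for them therefore describe picked members and test nothing. Among 79 members that could be scored, 7 lay over the 95th percentile of all genes. Of these, Atp5j2, Cox4i1, Ndufa6 and Cox6c (0.16) were themselves higher in WTg. Ndufb9 (-0.41), Ndufs5 (-0.05) and Atp5o (-0.02) were lower. Across these 79 members Pearson's correlation between a member's own ratio and that of its neighbours was 0.55 and Spearman's was 0.27, and without Atp5j2 and Cox4i1 Pearson's was 0.35. The last value still includes Ndufa6, which had the highest neighbour median of the 79. No such correlation was taken over all genes, so these values do not set the members apart from the genome. These members share both libraries and their depth, and some share neighbours.

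The mitochondrial-encoded members, which share their promoters, differed little between libraries as single genes. Their log2 ratios ran from -0.21 for mt-Atp6 (8542 CPM in EL1, 7408 CPM in WTg) to 0.32 for mt-Atp8 (44.4 and 55.4 CPM). The complex IV genes mt-Co1 (9313 and 8404 CPM, -0.15), mt-Co2 (6322 and 5760 CPM, -0.13) and mt-Co3 (8647 and 8029 CPM, -0.11) were lower in WTg, and the cytochrome b gene mt-Cytb was near level (4658 and 4488 CPM, -0.05). Of the 7 complex I genes, mt-Nd3 (536 and 658 CPM, 0.30), mt-Nd4l (186 and 214 CPM, 0.21), mt-Nd4 (2220 and 2370 CPM, 0.09) and mt-Nd5 (418 and 436 CPM, 0.06) were higher, and mt-Nd1 (2262 and 2060 CPM, -0.13), mt-Nd2 (1281 and 1252 CPM, -0.03) and mt-Nd6 (33.9 and 30.1 CPM, -0.17) lower. In all, 5 were higher and 8 lower, which became 8 and 5 under TMM, with mt-Cytb, mt-Nd2 and mt-Co3 changing sign. Without cluster 11 they were also 8 higher and 5 lower, with mt-Nd2 (0.09), mt-Cytb (0.04) and mt-Co2 (0.01) changing sign and a median of 0.04.

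The make-up of the mitochondrial-encoded RNA does not depend on the scaling, and its shares moved most for mt-Atp8, mt-Nd3 and mt-Nd4l. mt-Nd3, a complex I core subunit, made up 1.21% of mitochondrial-encoded UMIs in EL1 and 1.60% in WTg, or 0.41 on the log2 scale (0.38 to 0.44). Over the 9 clusters with at least 20 cells of a library, its share ran from 1.07% to 1.37% in EL1 and from 1.35% to 1.71% in WTg, so that the ranges met only at their edges. mt-Atp8 went in share from 0.0998% to 0.135% (0.43), mt-Nd4l from 0.417% to 0.521% (0.32) and mt-Nd4 from 4.99% to 5.76% (0.21). mt-Atp6 went from 19.2% to 18.0% (-0.09) and mt-Co1 from 20.9% to 20.4% (-0.04). mt-Atp8 overlaps mt-Atp6 by 43 bases and mt-Nd4l overlaps mt-Nd4 by 7 bases on the same strand, and each pair is known to be carried on a shared message, so the split of reads within these pairs is uncertain. mt-Nd6, which lies on the other strand and overlaps mt-Nd5 by 14 bases, had shares of 0.0762% and 0.0730%, and the interval of their log2 ratio (-0.18 to 0.06) included 0.

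**Figure D4:**
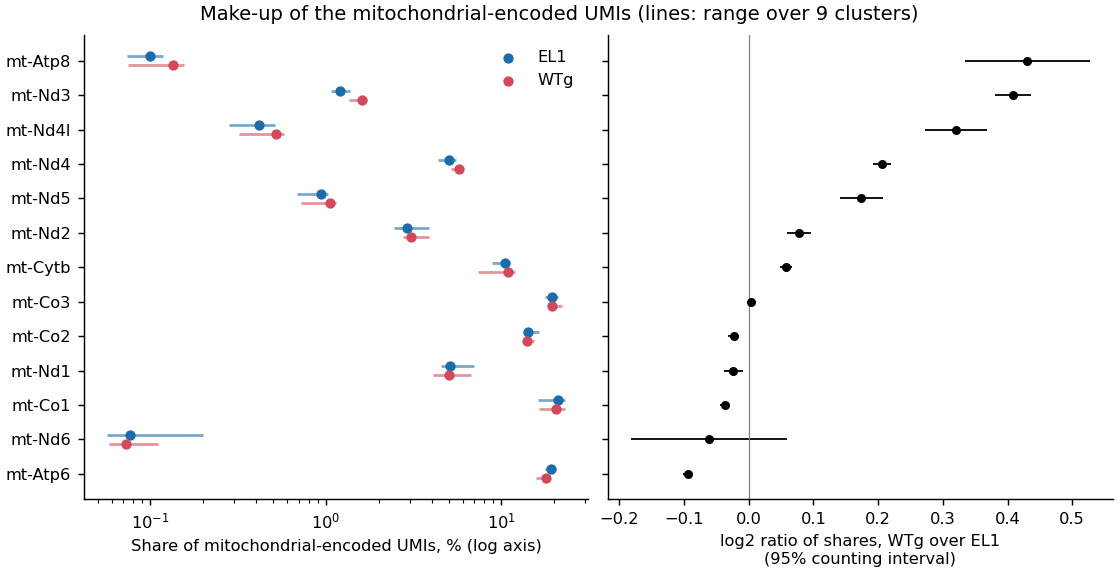
Left, share of each mitochondrial-encoded member in all mitochondrial-encoded UMIs in EL1 (blue) and WTg (red) on a log axis, with lines for the range over 9 clusters per library; right, log2 ratio of the shares, WTg over EL1, with 95% counting intervals. mt-Atp8, mt-Nd3 and mt-Nd4l have the highest ratios, 0.43, 0.41 and 0.32, and the abundant mt-Co and mt-Atp6 genes lie near 0.

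Across cell groups the mitochondrial-encoded and nuclear-encoded members did not move as 1 block. Clusters 0 to 5 and 7 to 10, which include the acinar-like and neuroendocrine-like cells, lay close together, with 3.54% to 4.65% mitochondrial-encoded and 1.77% to 2.59% nuclear-encoded UMIs. Cluster 6, led by the nuclear RNAs Malat1 and Kcnq1ot1 and very shallow (median 1643 UMIs in EL1 and 1928 in WTg), had 7.95% and 6.73% mitochondrial-encoded but only 0.513% and 0.414% nuclear-encoded UMIs, which is 15.5 and 16.2 mitochondrial-encoded UMIs per nuclear-encoded UMI. Macrophage-like cells had 5.55% and 5.54% mitochondrial-encoded UMIs with 1.49% nuclear-encoded UMIs in EL1 and 1.97% in WTg. Cluster 13 of WTg, with Cdc20 among its leading genes, lay the other way, with 3.53% nuclear-encoded and 4.63% mitochondrial-encoded UMIs at a median of 3342 UMIs per cell. Cell by cell, the shares of both classes were weakly related, with Spearman's correlation at 0.21 over 1113 EL1 cells and 0.05 over 905 WTg cells. Both shares are drawn from the same total of each cell.

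**Figure D5:**
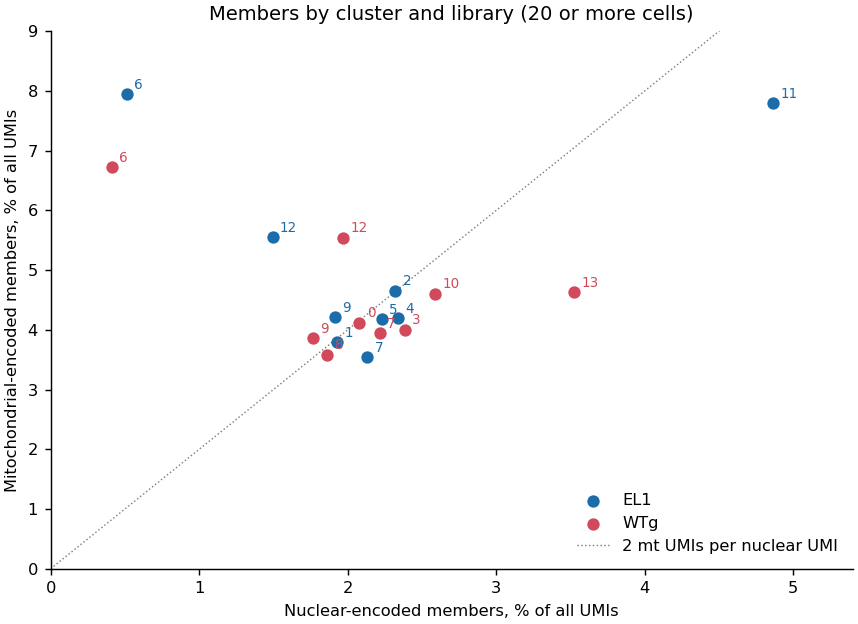
Mitochondrial-encoded against nuclear-encoded members, both as percent of all UMIs, for each cluster with at least 20 cells of a library (EL1 blue, WTg red, cluster numbers beside the points); the dotted line marks 2 mitochondrial-encoded UMIs per nuclear-encoded UMI. Cluster 11 lies far to the right at 4.86% nuclear-encoded UMIs, and cluster 6 lies at the upper left in both libraries.

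The library difference within cell groups was small in the neuroendocrine-like class and in clusters 7 and 9 and went in different directions elsewhere. In the neuroendocrine-like class (cluster 4 in EL1, cluster 3 in WTg) the mitochondrial-encoded sum gave -0.09 and the nuclear-encoded sum 0.01 (-0.00 to 0.02), with 33 of 88 members higher and a median of -0.07 against -0.16 for all genes of that class. In cluster 7 the sums gave 0.16 and 0.05, and in cluster 9 they gave -0.13 and -0.11. In the macrophage-like class the mitochondrial-encoded sum was level and the nuclear-encoded sum gave 0.40 (0.36 to 0.44), with 76 of 84 members higher beside a median of -0.05 for all genes there. Depth moved with it, at a median of 18518 UMIs per macrophage-like cell in EL1 and 25655 in WTg, and its part in the result was not tested. The pooled other immune cells (22 and 27 cells) gave 0.19 and -0.32. In cluster 6 the sums gave -0.24 and -0.31. Few members were 2-fold apart in the neuroendocrine-like class, the macrophage-like class and clusters 7 and 9, and more were in cluster 6 and the pooled other immune cells. In the neuroendocrine-like class 2 were that much higher (5.3% of all genes there were) and 1 lower (8.03%), and in the macrophage-like class 2 were higher (7.26%) and 0 lower (8.28%). Cluster 7 had 3 of 88 higher (6.23%) and 2 lower (8.03%), and cluster 9 had 3 of 87 higher (6.73%) and 2 lower (10%). Cluster 6, which is thinly counted, had 2 of 62 members higher (13.3%) and 12 lower, a share above that of all genes there (9.94%). The pooled other immune cells had 3 of 77 higher (9.79%) and 13 lower, at a share that stayed under that of all genes there (20.4%).

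Single members differed between cell groups in the same way. Intervals on opposite sides of 0 in different groups were seen for 30 of 90 nuclear-encoded and 8 of 13 mitochondrial-encoded members. Uqcrfs1 was lower in WTg in the neuroendocrine-like class (-0.23), cluster 7 (-0.42) and cluster 9 (-0.70) and higher in the macrophage-like class (0.61, 0.06 to 1.18, from 37 and 110 UMIs). mt-Nd3 and Ndufa6 were higher in WTg in 6 of 6 groups, and Ndufa12 and Ndufs3, subunits of complex I, were lower in 6 of 6. These counts are of signs alone, and intervals included 0 in cluster 6 and the pooled other immune cells for all 4 genes, in cluster 9 for Ndufa6 and in the macrophage-like class for Ndufa12 and Ndufs3. Whether the groups differ from each other was not tested.

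The isoforms that mark other tissues had few UMIs, and for some of them these came from few cells. Ndufa4l2, a paralogue of Ndufa4 known to be induced by low oxygen, had 0 UMIs in EL1, where 3 counts correspond to 0.0790 CPM, and 53 UMIs in WTg, of which 52 lay in cluster 17. This cluster of 14 cells, 2 of EL1 and 12 of WTg, was led by Igfbp7, Mgp and Sparc. It held both the fibroblast gene Dcn and the endothelial gene Flt1 among its leading genes. The part of these cell numbers in the library difference was not tested. Cox4i2, the other hypoxia-linked isoform, had 6 and 51 UMIs, and 26 of the latter lay in the same cluster. Cox6a2, the muscle form, had 19 UMIs in EL1, of which 17 came from 1 cell, and 13 in WTg. Cox7a1 had 395 UMIs in 126 cells of EL1, mostly in cluster 11, and 322 in 129 cells of WTg, of which 148 lay in the acinar-like cluster 8. Cox6b2, known from testis, had 169 and 160 UMIs, spread over 109 and 93 cells, and Cox7b2 had 10 and 4. Cox8b was at 0 in both libraries, and Cox8c had 1 UMI in EL1 and 0 in WTg.

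Among isoform families, the shares moved most in the Cox7a family. Cox4i1 made up 99.97% of the Cox4i pair in EL1 and 99.81% in WTg, Cox6a1 99.89% in both, and Cox6b1 99.01% and 98.74%. Cox7b, Cox8a and Ndufa4 each took over 99.5% of their family's UMIs in both libraries. The 3 genes for the c subunit of complex V, which encode the same mature protein, had shares of 37.4% (Atp5g1), 35.6% (Atp5g2) and 27.0% (Atp5g3) in EL1 and of 37.7%, 36.6% and 25.7% in WTg. In the Cox7a family, Cox7a2 went from 66.1% (65.6 to 66.7) to 72.5% (71.9 to 73.1) and Cox7a2l from 32.5% to 26.0%.

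Other genes of the pathway were described by lists. In all kept cells the electron carriers and exchangers had 2 higher and 12 lower genes (median -0.29), from the ADP/ATP carrier Slc25a4 (-0.59) to the uncoupling protein family member Ucp2 (0.89). Assembly factors outside the rule had 1 higher and 35 lower (median -0.43), from Cox19 (-1.26) to Pet100 (0.30). Genes for the replication and expression of mitochondrial DNA had 1 higher and 16 lower (median -0.40), from Polg2 (-1.15) to Slirp (0.03). The mitochondrial ribosome, which translates the mitochondrial-encoded members, had 6 higher and 72 lower genes (median -0.42, Mrps35 at -0.87 and Mrpl52 at 0.34). The cytosolic ribosome had 23 higher and 61 lower (median -0.12, Rps18 lowest at -0.69). All genes had a median of -0.14, with 6168 higher and 9999 lower.

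The lists for the mitochondrial ribosome, mitochondrial DNA expression and outside assembly factors kept their distance from all genes without cluster 11, and the others came close to the median of -0.12. The mitochondrial ribosome stayed at -0.38 (8 higher, 70 lower), mitochondrial DNA expression at -0.39 (2 higher, 15 lower) and the assembly factors outside the rule at -0.34 (3 higher, 33 lower), beside -0.60 for the complex I assembly factors. The electron carriers went to -0.06, the TCA cycle from -0.27 (2 higher and 11 lower, Idh3a lowest at -0.82) to -0.07, glycolysis from -0.25 (2 higher and 13 lower, Ldhb at -3.77 and Hk2 at 0.72) to -0.13, and the regulators of mitochondrial biogenesis from -0.27 (1 higher and 7 lower, Esrrg at -1.57 and Pprc1 at 0.12) to -0.07. Ldhb and Esrrg were among the leading genes of cluster 11.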

How the data were processed

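Single-cell suspensions were made by collagenase digestion and run on the 10x Chromium 3′ v3.1 chemistry. The deposited counts are UMIs of each gene in each barcode. The authors produced them in Cell Ranger 6.0.2 (matrix header) on GRCm38; the submitters' processing notes also name R 4.1 and Seurat 4.0.5. Whether introns and strand were counted was not given in the sources used here. The deposited dense count tables served as an alternative. Depth is given above; a floor of 3 counts is 0.0790 CPM for EL1 and 0.0909 CPM for WTg.

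Kept cells were clustered with scanpy 1.11.5 and leidenalg 0.10.2 (2000 variable genes, 30 components, 15 neighbours, resolution 1) after leaving out all 107 members, Mettl3, Plk1 and 97 cell cycle genes from Seurat 5.3.0. No correction between libraries was made. Of 19 clusters, 10 were named in 8 classes from marker lists (at least 3 markers at a log2 fold of 1 after adding 10 CPM and in 10% of cells), and 9 lay over 90% in 1 library. Cluster 17, named fibroblast-like by this rule, is given by its leading genes instead. Scrublet called 4 doublets in each library at an expected rate of 2%, and these were kept.

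UMIs were summed per library and cell group. Intervals at 95% were exact Poisson for sums, exact conditional binomial for ratios and exact Clopper-Pearson for shares (SciPy 1.17.1), and cover counting error only. TMM factors came from edgeR 4.0.16 under R 4.3.3. The log2 ratio and its interval were tested on simulated Poisson counts of single genes, and the other steps were not tested in this way. Gene positions were those of the GENCODE annotation of GRCm38, matched for 107 of 107 members. Genes named were all mitochondrial-encoded members; per complex, the highest and lowest ratio among members with at least 200 UMIs and the member with the most UMIs; all Sdh genes; the isoform families; members at 0; and the ends of each pathway list. A few genes that this rule or a description would name are not reported here. Other genes are marked as chosen after their values were seen or belong to a cluster or a neighbourhood. Members and lists were chosen with earlier results of these data known.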

Additional observations from a re-analysis of the deposited data

Results flagged for a closer look

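Barcodes over 20% mitochondrial-encoded UMIs were outside all comparisons, and they still held nuclear-encoded members. In 393 such barcodes of EL1 the nuclear-encoded members took 0.649% of UMIs, and in 440 of WTg 0.557%. As a share of UMIs that are not mitochondrial-encoded, this was 1.16% and 1.09%, below the 2.47% and 2.25% of the kept cells. Atp5j2 stood at 275 CPM of such UMIs in EL1 and at 546 CPM in WTg, the same order as in the kept cells.

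Library ratios with opposite signs in different cell groups were noted for sums and for single members. The mitochondrial-encoded sum had a log2 ratio of 0.19 in the pooled immune cells other than macrophage-like ones (neutrophil-like, B-like and T or NK-like) and of -0.24 in cluster 6. The nuclear-encoded sum had a log2 ratio of 0.40 in the macrophage-like class and of -0.32 in those pooled immune cells. Uqcrfs1 gave 0.61 in the macrophage-like class, beside a median of 0.40 over the nuclear-encoded members there, and -0.70 in cluster 9. It is 1 of 30 nuclear-encoded members, of 90, with intervals on opposite sides of 0 in different groups. The difference between these groups was not tested.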

How the results depend on the processing

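The median of the nuclear-encoded members (-0.22) kept its direction under all 13 alternatives and moved in 2, to -0.0568 without cluster 11 and -0.11 under TMM. The mitochondrial-encoded sum (-0.11) turned to 0.18 with all deposited barcodes and to 0.0029 under TMM, and was -0.10 at no more than 10% mitochondrial-encoded UMIs, -0.1053 without doublets, -0.0069 without cluster 11, -0.1147 without clusters 6 and 13, and -0.0763 as a mean of per-cell shares. The nuclear-encoded sum (-0.13) turned to 0.0144 without cluster 11, and was -0.16 with all deposited barcodes, -0.11 at no more than 10%, -0.16 as per-cell shares, -0.0201 under TMM, -0.14 over UMIs that are not mitochondrial-encoded and -0.19 without Atp5j2. The ratio of both sums (0.02) turned to -0.0212 without cluster 11, and was 0.34 with all deposited barcodes, 0.0139 at no more than 10%, 0.0271 without doublets and 0.0854 per cell; TMM was not run for it, since it cancels. The count of members past 2-fold (6) became 12 at 1.5-fold. In the neuroendocrine-like class, whose cells changed with the clustering (26 of EL1 and 142 of WTg at resolution 0.5, 155 and 75 at resolution 2, 206 and 96 with members kept), the mitochondrial-encoded ratio (-0.09) was -0.35 at resolution 0.5, 0.0201 with members kept and -0.0621 per cell. The nuclear-encoded ratio there (0.01) was -0.27, -0.0043 at resolution 2, 0.11 with members kept and -0.0279 per cell. The cause of these shifts was not tested. Leaving out cluster 11, clusters 6 and 13, or Atp5j2 was chosen after seeing the data. No paired analysis was possible because only 1 library stands for each genotype, which also leaves no replicate to leave out.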
